A study of Mus musculus with 51 samples.

Results

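The genes of the voltage-gated calcium and sodium channels were examined in 3 cell layers of the mouse hippocampus, the pyramidal cell layers of the CA1 and CA3 subfields and the granule cells of the dentate gyrus (DG). The genes are those whose only platform symbol begins with Cacn, or with Scn and a digit. They number 28, 20 calcium channel genes and 8 sodium channel genes, of 11807 genes with a single symbol, and each is given by the brightest of its probe sets over all 51 arrays.

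Tissue was captured by laser from 17 female mice, 4.5 months old by their labels, with 1 array per mouse and subfield. The 6 rTg4510 mice carried a CaMKIIα-tTA transgene, which makes the tetracycline-controlled transactivator in forebrain neurons, and the TRE-htau transgene it drives, a human tau with the P301L mutation. The 5 tTA mice carried only CaMKIIα-tTA, and the 6 double negative (DN) mice carried neither. All were littermates, and because the CaMKIIα promoter is active in forebrain excitatory neurons, tau in glia or interneurons is not modelled. Comparing rTg4510 with tTA mice holds the transactivator constant.

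Voltage-gated sodium channels open on depolarization and carry the rising phase of the action potential, and voltage-gated calcium channels turn the same depolarization into calcium entry for transmitter release, gene regulation and burst firing. Each channel has a pore-forming α subunit, with β subunits at sodium channels and α2δ and β subunits at calcium channels. Most neuronal members of the γ family, the Cacng genes, are better known as transmembrane AMPA receptor regulatory proteins (TARPs), which traffic and gate glutamate receptors. In the hippocampus these genes set how CA1 and CA3 pyramidal cells and DG granule cells fire.

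Signals are log2 values computed by the authors with RMA, a method that corrects background, normalizes arrays and summarizes each probe set. Array medians lay between 2.91 and 3.12, and across probe sets the correlation of an array with the average of its subfield was between 0.925 and 0.987. Each subfield's own marker list was the highest of the CA1, CA3 and DG lists on 46 of 51 arrays. The 5 that failed this came from CA1. A wider set of 8 CA1 arrays (rTg4510 mice 1, 3 and 6, tTA mice 1 and 4, DN mice 1, 2 and 5) had a CA1 marker score of at most 0.07, below the highest CA3 or DG array at 1.11, where the score is the mean over the list of each gene's signal minus its mean over all arrays. Prnp went against the label in 5 arrays: DN mouse 4 in all 3 subfields, and DN mouse 5 and rTg4510 mouse 3 in DG. The 2 Prnp probe sets were bright on the other rTg4510 arrays and dimmer on every tTA array. Xist went against the female label in the CA1 and CA3 arrays of DN mouse 5 (2.49 and 4.06). It also did so in the DG array of rTg4510 mouse 3 (2.50), already among the 5. All arrays were kept under their labels. Results past the threshold between CA1 and another subfield are also given without the 8 CA1 arrays. Genotype results are over all arrays unless stated otherwise.

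Of the 28 genes, 17 were above the array median on most arrays, among them the α subunit genes Scn1a, Scn2a and Scn8a and the α2δ genes Cacna2d1, Cacna2d2 and Cacna2d3. Another 6 genes were above it on no array, Cacna1b, Cacna1f, Cacna1s, Scn7a, Scn10a and Scn11a, and their means lay between 1.58 and 2.26 in the 3 subfields. Cacna1s is the skeletal muscle L-type channel, Cacna1f the retinal one, and Scn10a and Scn11a are channels of sensory neurons. Cacna1f averaged 2.19 ± 0.32 in CA1, 2.26 ± 0.25 in CA3 and 2.15 ± 0.19 in DG (SD, n = 17 each). Cacna1s averaged 1.76 ± 0.23 in CA1, 1.83 ± 0.21 in CA3 and 1.72 ± 0.21 in DG, Scn10a 1.62 ± 0.31 in CA1, 1.69 ± 0.29 in CA3 and 1.58 ± 0.22 in DG, and Scn11a 1.83 ± 0.25 in CA1, 1.77 ± 0.21 in CA3 and 1.76 ± 0.30 in DG. Cacna1b encodes the pore of the N-type channel, a main channel of presynaptic terminals, and its probe set averaged 1.78 ± 0.36 in CA1, 1.85 ± 0.41 in CA3 and 1.70 ± 0.28 in DG (SD, n = 17 each). A dim probe set does not show that its gene was not expressed.

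Between subfields, 8 of the 28 genes passed in at least 1 comparison. The share of all probe sets that passed in at least 1 was not computed, so only the counts per comparison have a background. The comparisons asked which channel genes distinguish the cell layers, over 51 arrays with the mouse as a block, in limma with a Benjamini-Hochberg adjustment over 22626 probe sets and a threshold of 0.05. Comparing CA1 with CA3, 2 of 28 genes passed, 1 higher and 1 lower, against 4.68% of all probe sets (2.46% higher and 2.22% lower). Comparing CA1 with the DG, 6 of 28 passed, 4 higher and 2 lower, against 10.9% of all probe sets (5.6% higher and 5.33% lower). Comparing CA3 with the DG, 5 of 28 passed, 3 higher and 2 lower, against 13.9% of all probe sets (7.27% higher and 6.59% lower). The shares in the CA1 against CA3 and the CA3 against DG comparisons were close to the background, and the list as a whole was not tested. The median difference over the 28 genes was -0.03 for CA1 minus CA3, 0.09 for CA1 minus DG and 0.11 for CA3 minus DG, and over all probe sets it was -0.03, 0.02 and 0.05. In captured layers, fewer cells of a type and less RNA per cell cannot be told apart.

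**Figure D1:**
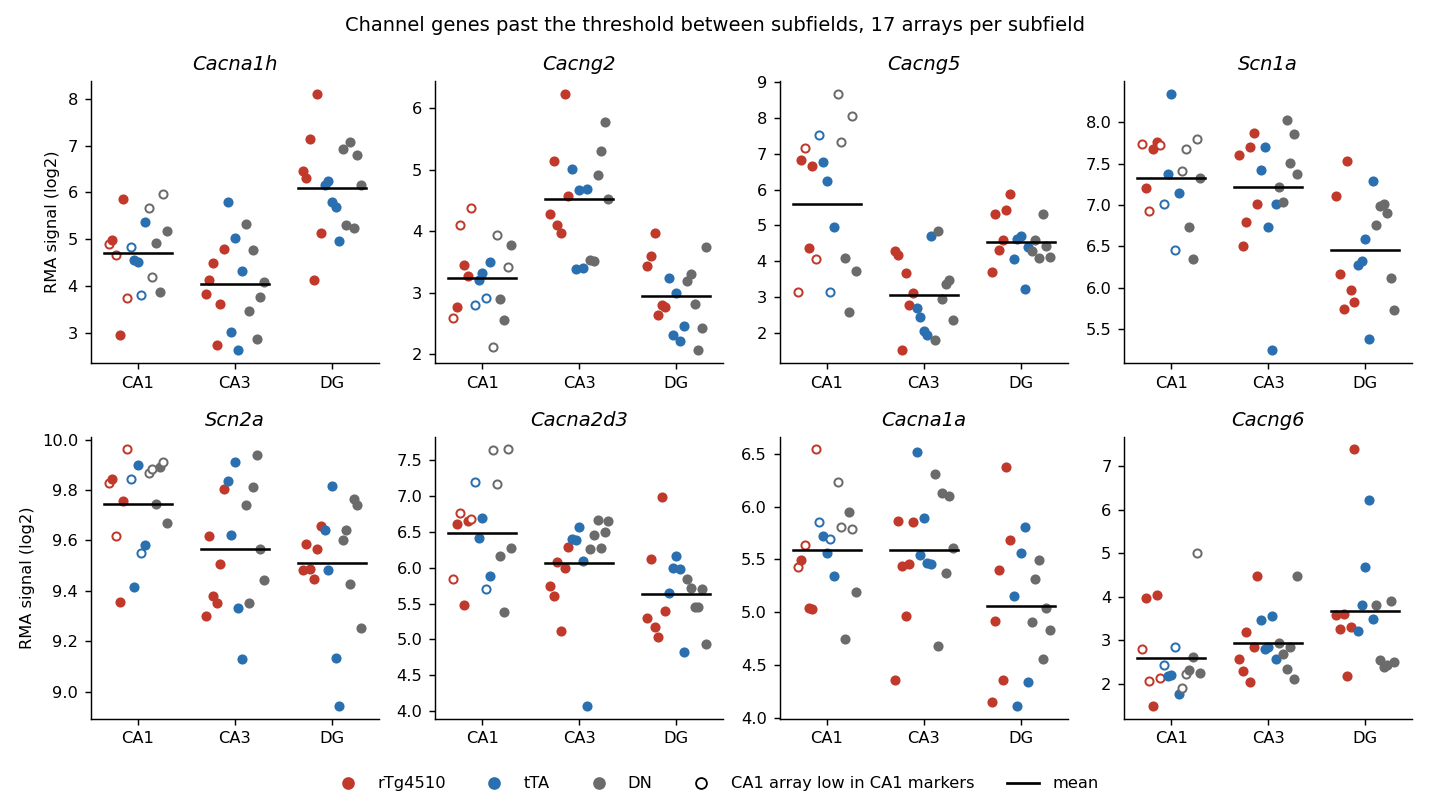
RMA signals (log2, vertical axis) of the 8 channel genes past the threshold in a comparison of subfields, 1 point per array in CA1, CA3 and DG (17 arrays each), coloured by genotype, with a bar at the mean and open points for the 8 CA1 arrays low in CA1 markers. Cacna1h was highest in DG and Cacng2 in CA3, Cacng5 ranged from 2.58 to 8.68 in CA1, and the subfields overlap for every gene shown.

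Cacna1h had the largest difference between CA3 and DG among the α subunit genes. It encodes the pore of Cav3.2, a T-type channel that opens at low voltages and supports burst firing. Its signal (probe set 1422710_a_at, gene on chromosome 17) ran from 2.96 to 5.96 with a median of 4.85 in CA1, from 2.63 to 5.79 with a median of 4.09 in CA3, and from 4.14 to 8.10 with a median of 6.17 in DG. The DG arrays were thus higher as a group, with overlap at the low end. Cacna1h fell by 2.05 on the log2 scale in CA3 relative to the DG (standard error 0.22, limma adjusted p = 8.31e-09), a 4.15-fold difference that had the same direction in 17 of 17 mice. In CA1 it was 2.62-fold lower than in DG (-1.39, standard error 0.22, limma adjusted p = 1.8e-05), and lower in 16 of 17 mice. CA1 and CA3 differed by 0.66, which did not pass (limma adjusted p = 0.0771). Within genotypes, CA3 minus DG was -2.28 ± 1.39 in rTg4510 mice (SD, n = 6), -1.61 ± 1.41 in tTA mice (SD, n = 5) and -2.20 ± 0.50 in DN mice (SD, n = 6), and no mouse of any genotype went the other way. The other T-type gene measured, Cacna1g, was dim and averaged 2.28 ± 0.79 in CA1, 2.12 ± 0.56 in CA3 and 2.16 ± 0.47 in DG (SD, n = 17 each).

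Among the high-voltage α1 genes, Cacna1a alone passed. It encodes the P/Q-type pore, which drives fast transmitter release. Its signal (1459996_at, chromosome 8) ran from 4.75 to 6.54 with a median of 5.64 in CA1, from 4.36 to 6.52 with a median of 5.54 in CA3, and from 4.12 to 6.37 with a median of 5.05 in DG, with wide overlap. Cacna1a was higher than in DG by 0.53 in CA1 (standard error 0.17, limma adjusted p = 0.0328) and by 0.53 in CA3 (standard error 0.17, limma adjusted p = 0.0289), in 14 of 17 mice each. These calls were the least stable. The CA1 call was lost without any 1 of 9 mice (rTg4510 mice 1, 2, 4 and 6, tTA mice 2 and 5, DN mice 1, 4 and 5), with adjusted p up to 0.0810, and the CA3 call without any 1 of 7 (rTg4510 mouse 2, tTA mice 1, 2 and 5, DN mice 1, 5 and 6), with adjusted p up to 0.0670. Both calls also ended without the 5 arrays of discordant Prnp, at 0.48 (limma adjusted p = 0.115) and 0.51 (limma adjusted p = 0.072). The second probe set gave 0.25 and 0.31 (limma adjusted p = 0.269 and 0.119).

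The L-type genes Cacna1c and Cacna1d, which couple depolarization to gene expression, and the R-type gene Cacna1e passed in no comparison of subfields. Cacna1c averaged 6.63 ± 0.77 in CA1 and 7.20 ± 0.74 in CA3 (SD, n = 17 each), and in DG it had a median of 7.39 with a range from 4.54 to 8.45. Cacna1d averaged 4.14 ± 0.83, 3.93 ± 0.76 and 4.58 ± 0.74 in CA1, CA3 and DG, and its CA3 minus DG difference of -0.65 had a limma adjusted p of 0.0707. Cacna1e averaged 6.82 ± 0.69 in CA1, 6.90 ± 0.79 in CA3 and 6.72 ± 0.76 in DG (SD, n = 17 each), and so was nearly level across the layers.

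Of the auxiliary calcium channel genes, Cacna2d3 passed in CA1 against DG. The α2δ proteins carry calcium channels to the membrane and are bound by gabapentin-like drugs in the case of α2δ-1 and α2δ-2, but not α2δ-3. Cacna2d3 (1419225_at, chromosome 14) ran from 5.39 to 7.65 with a median of 6.60 in CA1, from 4.08 to 6.66 with a median of 6.27 in CA3, and from 4.82 to 6.98 with a median of 5.64 in DG. It was 0.85 higher in CA1 than in DG (standard error 0.17, limma adjusted p = 0.000445, 14 of 17 mice), with CA3 between them. Without the 8 CA1 arrays low in CA1 markers the difference was 0.60 and did not pass (limma adjusted p = 0.0864). Cacna2d1 averaged 7.39 ± 0.44 in CA1, 7.83 ± 0.39 in CA3 and 7.69 ± 0.65 in DG, and Cacna2d2 6.72 ± 0.92, 5.48 ± 1.32 and 6.09 ± 1.46 (SD, n = 17 each). The Cacna2d2 difference of 1.24 between CA1 and CA3 missed the threshold (limma adjusted p = 0.0946). Cacnb1, a cytoplasmic β subunit, averaged 5.03 ± 1.09 in CA1, 4.46 ± 0.93 in CA3 and 4.37 ± 0.79 in DG (SD, n = 17 each), and did not pass over all arrays.

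The γ family held the largest difference, that of Cacng5, and a strong CA3 gene in Cacng2. Cacng2 encodes stargazin, the TARP lost in the stargazer mouse, and it was highest in CA3. Its signal (1420596_at, chromosome 15) ran from 2.12 to 4.38 with a median of 3.27 in CA1, from 3.39 to 6.23 with a median of 4.58 in CA3, and from 2.07 to 3.97 with a median of 2.83 in DG. It was above the array median on 17 of 17 CA3 arrays, against 10 of 17 in CA1 and 7 of 17 in DG. Cacng2 was 2.45-fold lower in CA1 than in CA3 (-1.29, standard error 0.22, limma adjusted p = 0.000179, lower in 15 of 17 mice) and higher in CA3 than in DG (1.59, standard error 0.22, limma adjusted p = 1.98e-06, higher in 17 of 17 mice). CA3 minus DG was 1.51 ± 1.11 in rTg4510 mice (SD, n = 6), 1.58 ± 0.47 in tTA mice (SD, n = 5) and 1.67 ± 1.42 in DN mice (SD, n = 6).

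Cacng5, a TARP of the group that modulates AMPA receptors without strongly promoting their traffic, was highest in CA1 and varied most there. Its signal (1434785_at, chromosome 11) ran from 2.58 to 8.68 with a median of 6.23 in CA1, from 1.51 to 4.84 with a median of 2.94 in CA3, and from 3.23 to 5.87 with a median of 4.42 in DG. The CA1 arrays thus reached far above both other layers, and their lowest lay within the CA3 range. Cacng5 was 5.83-fold above its CA3 level in CA1 (2.54, standard error 0.44, limma adjusted p = 0.000167, higher in 15 of 17 mice) and 2.77-fold lower in CA3 than in DG (-1.47, standard error 0.44, limma adjusted p = 0.0199, lower in 14 of 17 mice). CA1 minus DG was 1.08 and did not pass (limma adjusted p = 0.124). The second probe set of Cacng5 also exceeded CA3 in CA1 (0.89, limma adjusted p = 0.00244), and there CA1 exceeded the DG as well (0.88, limma adjusted p = 0.00136) while CA3 minus DG was -0.02. That probe set was dim, averaging 2.54 in CA1, 1.64 in CA3 and 1.66 in DG. Its CA3 minus DG value thus lies between levels near the lower end of the signal range and cannot order these layers.

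Cacng5 is also known as a marker of CA2 pyramidal cells, which lie between CA1 and CA3, so the level of other CA2 markers is given beside it. Of 8 CA2 markers listed after the Cacng5 values had been seen, 5 were measured (Pcp4, Rgs14, Necab2, Ptpn5 and Actn2), and their mean score ran from -0.82 to 1.76 in CA1, from -0.87 to 0.02 in CA3 and from -0.69 to 0.76 in DG. The CA1 arrays with the highest Cacng5 were those of DN mouse 1 at 8.68, DN mouse 5 at 8.06 and tTA mouse 1 at 7.53, with CA2 scores of 1.67, 1.76 and 1.04. The lowest were those of DN mouse 4 at 2.58, rTg4510 mouse 1 at 3.13 and tTA mouse 4 at 3.14, with CA2 scores of -0.82, 0.05 and 0.23. The CA1 arrays with the highest Cacng5 thus had high CA2 scores, but the low end was less clear. DN mouse 3 (Cacng5 at 4.08) and rTg4510 mouse 6 (4.05) had scores of -0.54 and -0.38, below those of rTg4510 mouse 1 and tTA mouse 4. The part of the CA2 markers in the Cacng5 difference was not tested. The 5 markers did not share a layer pattern. Rgs14, a signalling scaffold of CA2 neurons, had a median of 3.86 in CA1, against 2.19 in CA3 and 2.67 in DG. Necab2, a calcium-binding protein, had medians of 5.37, 2.60 and 3.69 in these layers, and the phosphatase gene Ptpn5 6.37, 5.35 and 5.31. Pcp4, a calmodulin regulator, was highest in DG by its median (10.4, 9.86 and 10.6), and Actn2, an actinin, was lowest in CA1 (2.95, 3.19 and 3.08).

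Because Cacng2 and Cacng5 moved in opposite directions between CA1 and CA3, the promoter windows of both genes are shown, from RefSeq on GRCm38.p6, each 250 bases before to 50 bases after an annotated start, on the minus strand, with E-boxes (CANNTG, the same on both strands) in capitals. The Cacng2 window is chr15:78119231-78119530 and the Cacng5 window chr11:107915006-107915305.
Cacng2: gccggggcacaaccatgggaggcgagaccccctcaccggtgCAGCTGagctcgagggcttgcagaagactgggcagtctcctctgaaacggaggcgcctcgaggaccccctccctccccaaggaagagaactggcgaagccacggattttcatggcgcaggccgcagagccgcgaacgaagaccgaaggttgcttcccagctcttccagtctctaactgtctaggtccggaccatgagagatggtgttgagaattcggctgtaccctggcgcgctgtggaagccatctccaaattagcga
Cacng5: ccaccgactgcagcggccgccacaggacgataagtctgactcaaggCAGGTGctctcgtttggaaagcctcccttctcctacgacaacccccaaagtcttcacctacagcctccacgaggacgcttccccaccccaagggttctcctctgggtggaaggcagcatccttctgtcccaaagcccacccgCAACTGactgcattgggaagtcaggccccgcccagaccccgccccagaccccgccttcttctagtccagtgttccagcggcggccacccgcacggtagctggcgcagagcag
The Cacng2 window held 1 E-box and no GC box (GGGCGG on either strand) at 61.0% GC. The Cacng5 window held 2 E-boxes and 2 GC boxes at 63.3% GC, and a second annotated start of Cacng5 has its window at chr11:107911313-107911612 with 1 E-box. Of the 28 genes, 22 matched the RefSeq table, with 29 windows, and an E-box was in 72.4% of them and in 72.3% of 32851 windows of all genes. A GC box was in 41.4% of the channel windows and in 35.7% of all windows, and a TATA box (TATAAA) in 6.9% and 13.6%. These matches describe letters in the window and no binding.

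The other TARP genes were nearer level. Cacng3 averaged 5.25 ± 0.98 in CA1, 5.79 ± 0.61 in CA3 and 4.97 ± 0.93 in DG (SD, n = 17 each), and its CA3 minus DG difference of 0.82 fell just outside the threshold (limma adjusted p = 0.051). Cacng7 averaged 4.14 ± 0.88, 3.39 ± 1.02 and 4.14 ± 0.95, and Cacng8, the main hippocampal TARP at the protein level, 2.72 ± 0.29, 2.81 ± 0.34 and 2.69 ± 0.21, in the same order. The Cacng8 probe set was above the array median on 10 of 51 arrays. Cacng6, a γ subunit best known from muscle, reached 4.998 with a median of 2.25 in CA1, 4.47 with a median of 2.84 in CA3, and 7.38 with a median of 3.49 in DG. It was 2.09-fold lower in CA1 than in DG (-1.06, standard error 0.32, limma adjusted p = 0.0261, lower in 13 of 17 mice). Within genotypes, CA1 minus DG was -1.13 ± 2.21 in rTg4510 mice (SD, n = 6), -1.99 ± 0.97 in tTA mice (SD, n = 5) and -0.22 ± 0.97 in DN mice (SD, n = 6). The call over all mice was lost without rTg4510 mouse 6, tTA mouse 2, 3 or 4, or DN mouse 1, with values from -1.03 to -0.80 and adjusted p up to 0.0724. Without the 8 CA1 arrays low in CA1 markers it was -0.77 (limma adjusted p = 0.251), and the second probe set of Cacng6 gave 0.05 (limma adjusted p = 0.885). That second probe set was dim, averaging 2.08 in CA1, 2.13 in CA3 and 2.03 in DG, and could show little difference. Cacng1, the skeletal muscle γ subunit, had medians of 1.98, 1.93 and 1.94 in CA1, CA3 and DG.

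Among the sodium channels, Scn1a and Scn2a were higher in CA1 than in DG. Scn1a encodes Nav1.1, known above all from fast-spiking interneurons, and its signal (1450120_at, chromosome 2) ran from 6.34 to 8.34 with a median of 7.37 in CA1, from 5.25 to 8.03 with a median of 7.38 in CA3, and from 5.38 to 7.54 with a median of 6.33 in DG. The medians of both pyramidal layers were close to each other and above that of the DG. Scn1a was 1.84-fold higher in CA1 than in DG (0.88, standard error 0.17, limma adjusted p = 0.000414, 14 of 17 mice) and 1.69-fold higher in CA3 than in DG (0.76, standard error 0.17, limma adjusted p = 0.00178, 15 of 17 mice). The second probe set gave 0.97 (limma adjusted p = 2.4e-05) and 0.89 (limma adjusted p = 6.6e-05) for the same differences. The CA1 difference of the first probe set did not pass without the 8 CA1 arrays low in CA1 markers (0.70, limma adjusted p = 0.0864).

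Scn2a encodes Nav1.2, a channel of excitatory neurons and their axon initial segments, and its range was the narrowest of the genes that passed. It ran from 9.36 to 9.96 with a median of 9.83 in CA1, from 9.13 to 9.94 with a median of 9.57 in CA3, and from 8.94 to 9.82 with a median of 9.57 in DG (1427280_at, chromosome 2). Scn2a was 0.23 higher in CA1 than in DG (standard error 0.06, limma adjusted p = 0.00324, 15 of 17 mice), which is a 1.18-fold difference, and its difference of 0.18 from CA3 did not pass (limma adjusted p = 0.0596). Without the 8 CA1 arrays low in CA1 markers the Scn2a difference between CA1 and DG was 0.18 and did not pass (limma adjusted p = 0.202). The second probe set of Scn2a had another pattern, with 0.01 for CA1 minus CA3 (limma adjusted p = 0.984), 0.40 for CA1 minus DG (limma adjusted p = 0.032) and 0.39 for CA3 minus DG (limma adjusted p = 0.0315). Scn8a, which encodes Nav1.6, the channel at which action potentials start, averaged 7.55 ± 0.50 in CA1, 7.28 ± 0.83 in CA3 and 7.16 ± 0.71 in DG (SD, n = 17 each). Scn3a, a channel of the developing brain, was dim at 2.09 ± 0.22, 2.21 ± 0.31 and 2.13 ± 0.37 in the same order, as was Scn7a, which senses sodium rather than voltage, at 1.80 ± 0.27, 1.92 ± 0.32 and 1.68 ± 0.16. Scn1a, Scn2a, Scn3a, Scn7a and Cacna1b lie on chromosome 2.

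Some markers of other cells passed in these comparisons, in which 4.68% (CA1 against CA3), 10.9% (CA1 against DG) and 13.9% (CA3 against DG) of all probe sets passed. Of 9 interneuron markers measured, 3 were higher and 0 lower in CA1 than in CA3, 2 were higher and 2 lower in CA1 than in DG, and 0 were higher and 3 lower in CA3 than in DG. Their score ran from -0.59 to 1.16 in CA1, from -0.96 to 0.32 in CA3 and from -0.73 to 0.73 in DG. Of 8 general neuron markers, 1 was lower in CA1 than in CA3, 4 were higher in CA1 than in DG and 5 higher in CA3 than in DG, with scores from -0.34 to 0.29 in CA1, from -0.21 to 0.46 in CA3 and from -0.60 to 0.06 in DG. Of 9 astrocyte markers, 1 was higher and 5 lower in CA1 than in DG, and 0 were higher and 3 lower in CA3 than in DG. The 3′ minus 5′ difference of Gapdh, a sign of RNA quality, was 2.32 in CA1 by its median, against 2.40 in CA3 and 2.67 in DG. The part of these markers and of RNA quality in the differences of Scn1a, Scn2a, Cacna1a and Cacna2d3 was not tested.

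**Figure D2:**
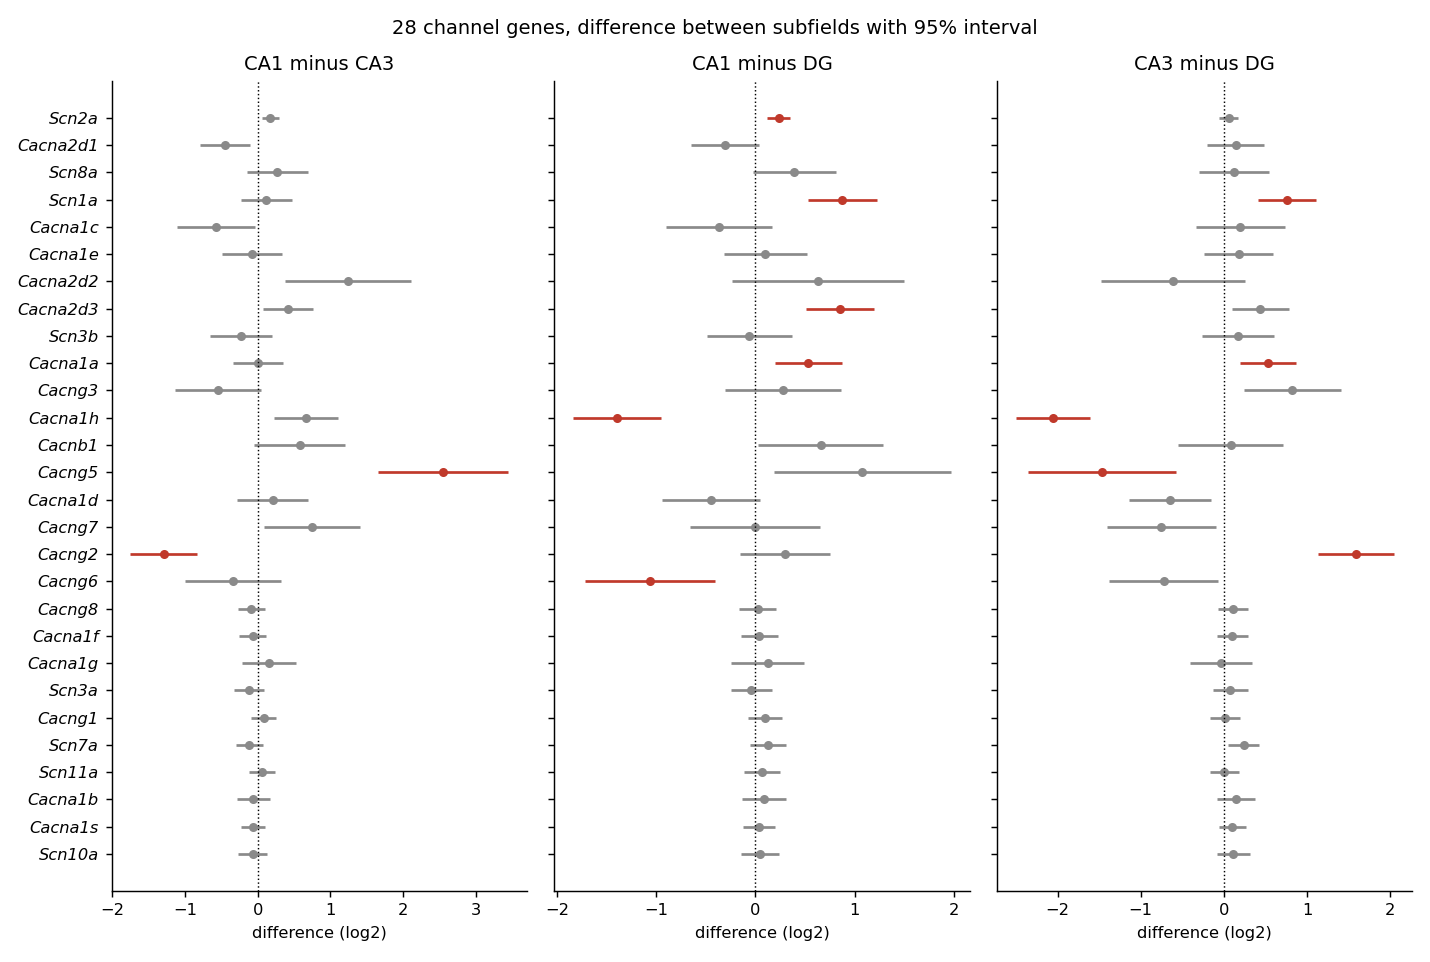
Difference between subfields (log2, horizontal axis) with its 95% interval from limma for all 28 channel genes, for CA1 minus CA3, CA1 minus DG and CA3 minus DG, with red for the genes past the adjusted threshold of 0.05. The red points are 2, 6 and 5 genes, and Cacng5 at 2.54 and Cacna1h at -2.05 lie farthest from 0.

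On the 8 CA1 arrays low in CA1 markers, some channel genes lay in another range than on the other 9. Scn3b encodes the sodium channel β3 subunit, and over all arrays it averaged 5.95 ± 1.03 in CA1, 6.18 ± 0.36 in CA3 and 6.01 ± 0.39 in DG (SD, n = 17 each), so that the CA1 spread stood out. It ran from 4.51 to 5.80 on the 8 arrays and from 5.92 to 7.55 on the other 9 CA1 arrays. Cacna1c went the other way, from 6.69 to 7.73 on the 8 arrays and from 5.21 to 6.54 on the other 9. Cacng3 ran from 3.74 to 5.86 on the 8 arrays and from 4.87 to 7.10 on the other 9, and Cacnb1 from 2.25 to 5.92 and from 4.76 to 6.81. Scn1a, Cacna1h and Cacng2 had nearly the same mean on both sets, at 7.34, 4.72 and 3.29 on the 8 arrays and 7.32, 4.69 and 3.20 on the other 9.

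Without these 8 arrays, a choice made after seeing the data, 4 genes passed in CA1 against CA3 and 3 in CA1 against DG. Of 22626 probe sets, 1150 and 1310 passed in these 2 comparisons. Cacng2 at -1.39 and Cacng5 at 1.93 remained in CA1 minus CA3, and Cacna1h at -1.26 remained in CA1 minus DG. Scn3b joined at 0.61 above CA3 (limma adjusted p = 0.0102) and 0.78 above the DG (limma adjusted p = 0.000874), and Cacnb1 at 1.22 above CA3 (limma adjusted p = 0.036) and 1.30 above the DG (limma adjusted p = 0.0205). The dimmer second probe set of Cacnb1 gave -0.50 and -0.01 for these differences over all arrays (limma adjusted p = 0.427 and 0.995). The CA1 minus DG differences of Scn1a (0.70, limma adjusted p = 0.0864), Cacna2d3 (0.60, 0.0864), Scn2a (0.18, 0.202), Cacna1a (0.34, 0.511) and Cacng6 (-0.77, 0.251) no longer passed, with 9 CA1 arrays in place of 17. In the fit without the 8 arrays 7 genes passed in CA3 against DG, with Cacna1d and Cacng3 added. The share of all probe sets in that fit is not given, and with all arrays it was 13.9%. The second probe set of Cacna1d, which was dim, gave 0.09 for CA3 minus DG over all arrays (limma adjusted p = 0.756).

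**Figure D3:**
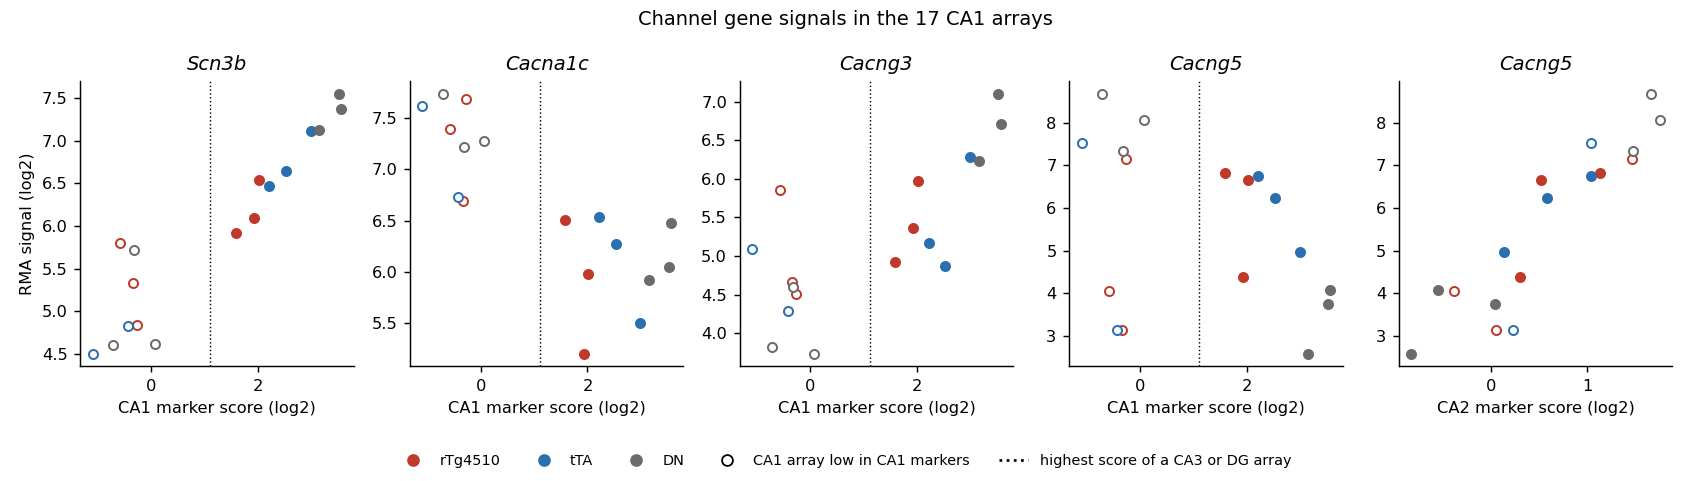
RMA signals (log2, vertical axes) of 4 channel genes in the 17 CA1 arrays against the CA1 marker score, and of Cacng5 also against the CA2 marker score (log2, horizontal axes), coloured by genotype, with open points for the 8 arrays low in CA1 markers and a dotted line at the highest score of a CA3 or DG array, 1.11. Scn3b lay between 4.51 and 5.80 on the open points and from 5.92 to 7.55 on the others, Cacna1c was highest on the open points, and Cacng5 was high on arrays with a high CA2 score.

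Some genes of proteins that act on these channels also passed between layers. Of 14 measured regulators of calcium channels, 1 was higher and 1 lower in CA1 than in CA3, 7 were higher and 0 lower in CA1 than in DG, and 9 were higher and 0 lower in CA3 than in DG, against 4.68%, 10.9% and 13.9% of all probe sets in these comparisons. Rem2, a small GTPase that inhibits high-voltage calcium channels, averaged 4.65 ± 0.94 in CA1, 5.05 ± 0.72 in CA3 and 2.52 ± 0.73 in DG (SD, n = 17 each), and so was 2.13 and 2.53 above the DG (limma adjusted p = 5.17e-07 and 1.04e-08). Stac2, an adaptor of L-type channels, averaged 5.27 in CA1, 6.03 in CA3 and 3.29 in DG, 1.97 and 2.74 above the DG (limma adjusted p = 4.23e-05 and 9.04e-08). Stx1a, the syntaxin that binds presynaptic channels, was 0.88 lower in CA1 than in CA3 (limma adjusted p = 0.029) and exceeded the DG by 0.77 in CA1 and 1.65 in CA3. Cbarp, which binds β subunits and restrains calcium channels, was above the DG by 0.81 in CA1 and 0.54 in CA3. Snap25 and Syt1 are in this list and in the neuron marker list as well, and the list was not tested as a set.

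Of 9 measured sodium channel partners, 2 were higher and 2 lower in CA1 than in CA3, 1 was higher and 2 lower in CA1 than in DG, and 3 were higher and 1 lower in CA3 than in DG. The share of all probe sets that passed was 4.68%, 10.9% and 13.9%. Nedd4l, a ubiquitin ligase that removes sodium channels from the membrane, averaged 8.65 ± 0.45 in CA1, 7.84 ± 0.69 in CA3 and 9.20 ± 0.29 in DG (SD, n = 17 each). It was 0.81 higher in CA1 than in CA3, 0.54 lower in CA1 than in DG, and 1.35 lower in CA3 than in DG (limma adjusted p = 3.8e-05, 0.00297 and 4.71e-10). Fgf11 and Fgf14 are intracellular fibroblast growth factors that bind sodium channel tails, and in CA1 relative to CA3 Fgf11 was 1.23 higher (limma adjusted p = 0.00144) and Fgf14 0.52 lower (limma adjusted p = 0.0199). Fgf12 was above the DG by 0.45 in CA1 and 0.48 in CA3 (limma adjusted p = 0.0487 and 0.0263).

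Of 6 AMPA receptor genes measured beside the TARPs, 0 passed in CA1 against CA3, 1 was higher and 1 lower in CA1 than in DG, and 1 was higher and 2 lower in CA3 than in DG, beside 4.68%, 10.9% and 13.9% of all probe sets. Cnih3, a cornichon that slows the closing of AMPA receptors, was 2.43 lower in CA1 and 1.83 lower in CA3 than in DG (limma adjusted p = 5.83e-09 and 9.89e-07). Gria3, a receptor subunit, was 0.61 higher in CA1 and 0.67 higher in CA3 than in DG (limma adjusted p = 3.59e-05 and 6.31e-06). Gria1 was 0.34 lower in CA3 than in DG (limma adjusted p = 0.048).

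Between genotypes, 0 of the 28 genes passed in any of 15 comparisons. The comparisons asked whether mutant tau, or the transactivator alone, changed channel expression in a subfield, and fitted the 3 genotypes of a subfield together in limma. Of all probe sets, 0.00442% passed in rTg4510 against DN in CA1 and in rTg4510 against tTA in CA3, and 0% in every other comparison of genotypes, of the means over the 3 subfields and of the interactions. At an unadjusted p under 0.05, 0 to 3 of the 28 genes passed in each of the 9 comparisons within a subfield, 13 in all, and the smallest limma adjusted p was 0.398. From 3.94% to 6.13% of all probe sets passed at that unadjusted cut in these comparisons. Fisher's LSD, the test of the study's methods, also passed 0 genes after adjustment, with 11 at an unadjusted p under 0.05 on log2 signals and 9 on linear signals. For Fisher's LSD the unadjusted share of all probe sets was not computed. In the 3 comparisons of means 2 genes each, and in the 3 interactions 1, 0 and 2 genes, had an unadjusted p under 0.05. The shares of all probe sets were 5.35% to 6.17% in the means, and 4.15%, 4.82% and 6.42% in the interactions. The median half-width of the 95% interval for rTg4510 minus tTA was 0.70 in CA1, 0.72 in CA3 and 0.73 in DG. Over single genes the half-width ran from 0.275 to 2.44 in CA1, from 0.306 to 1.57 in CA3 and from 0.242 to 1.58 in DG, so that the size of change these arrays could show differed from gene to gene.

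**Figure D4:**
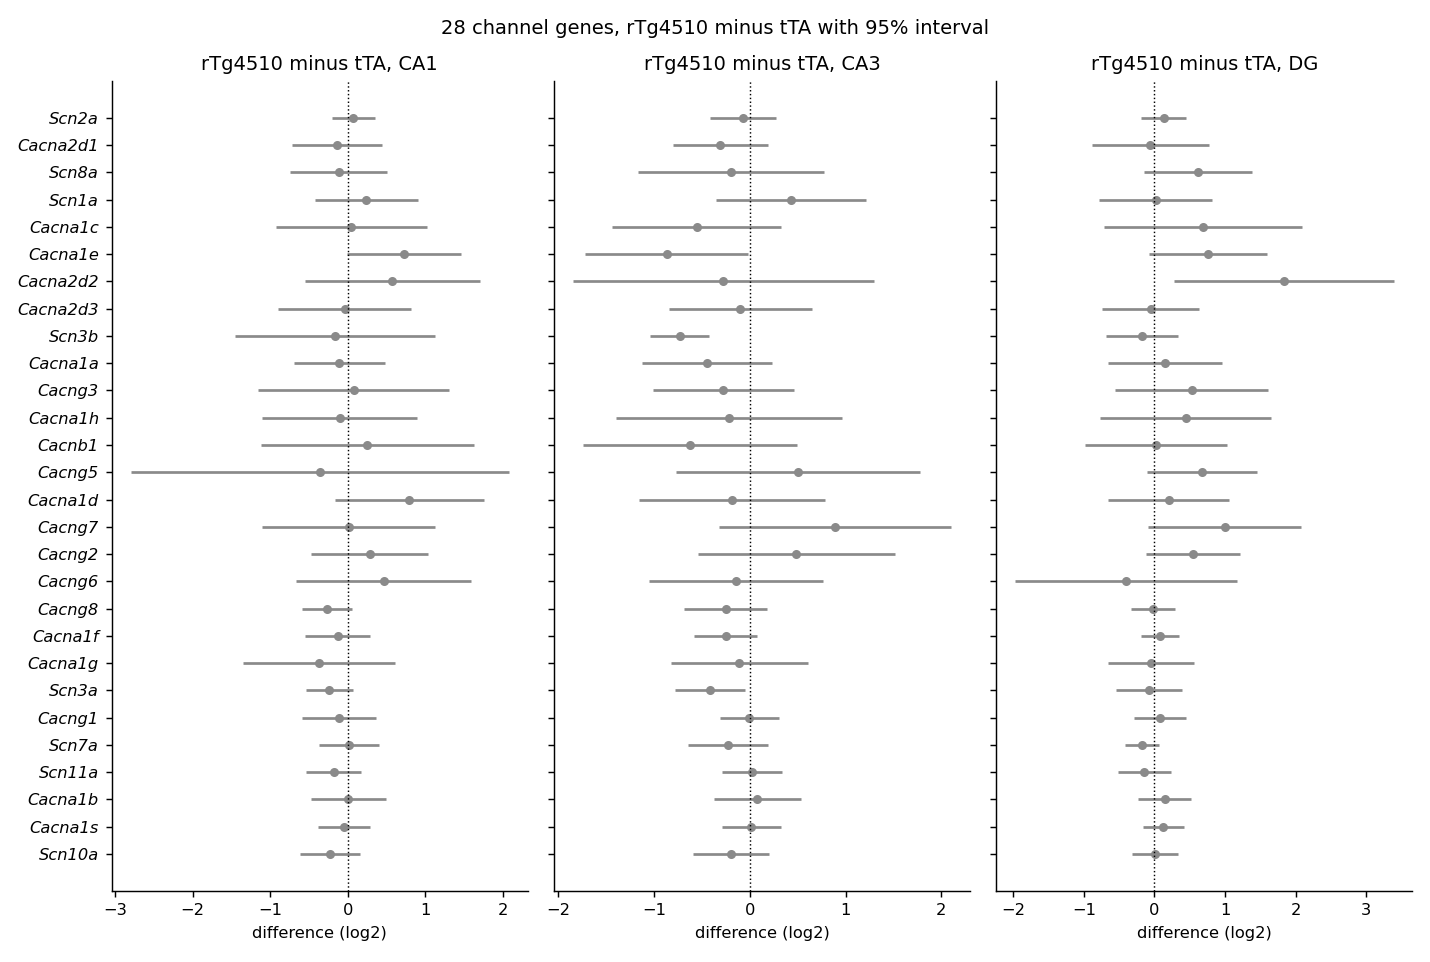
Difference between rTg4510 and tTA mice (log2, horizontal axis) with its 95% interval from limma for all 28 channel genes in CA1, CA3 and DG, 6 rTg4510 and 5 tTA mice each. No gene passed the adjusted threshold, and Scn3b in CA3 at -0.73 had the smallest p.

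Scn3b in CA3 had the smallest p of all. It ran from 5.61 to 6.13 with a median of 5.88 in the 6 rTg4510 mice, was 6.67, 6.50, 6.53, 6.42 and 6.85 in the tTA mice, and ran from 5.89 to 6.60 with a median of 6.15 in the 6 DN mice. Every rTg4510 array thus lay below every tTA array, and DN arrays lay between and across both. Only the array of DN mouse 4, at 6.60, reached the tTA range, and its Prnp went against its label. The rTg4510 minus tTA difference was -0.73 (standard error 0.14, unadjusted p = 0.000106, limma adjusted p = 0.398), tTA minus DN was 0.44 (limma adjusted p = 0.779) and rTg4510 minus DN was -0.29 (limma adjusted p = 0.984). The 3 comparisons share arrays. The second probe set of Scn3b gave -0.17 for rTg4510 minus tTA in CA3 (limma adjusted p = 0.956), and in CA1 and the DG the chosen probe set showed wide overlap of the genotypes. The oligodendrocyte marker score in CA3 ran from -0.14 to 1.52 in rTg4510 mice and from -0.87 to 0.34 in tTA mice, and its part in the Scn3b value was not tested.

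Over all arrays, Cacna1e had opposite differences in the layers. It averaged 6.96 ± 0.73 in CA1, 6.33 ± 0.87 in CA3 and 6.90 ± 0.50 in DG in rTg4510 mice (SD, n = 6), and 6.24 ± 0.76, 7.20 ± 0.77 and 6.14 ± 1.12 in tTA mice (SD, n = 5). In DN mice it averaged 7.17 ± 0.17, 7.22 ± 0.39 and 7.03 ± 0.31 (SD, n = 6). Within mice, CA1 minus CA3 was above 0 in 5 of 6 rTg4510 mice (from -0.33 to 1.68), in 0 of 5 tTA mice (from -1.78 to -0.11) and in 2 of 6 DN mice (from -0.60 to 0.54). The difference of these differences, rTg4510 minus tTA, was 1.59 (standard error 0.35, unadjusted p = 0.000278), but the limma adjusted p was 0.9998. For CA3 minus DG it was -1.63 (standard error 0.51, limma adjusted p = 0.704). The single comparisons were 0.72 in CA1, -0.87 in CA3 and 0.76 in DG for rTg4510 minus tTA, with limma adjusted p of 0.9987, 0.834 and 0.879. The CA1 and the CA1 minus CA3 values include the CA1 arrays low in CA1 markers. On the other CA1 arrays the genotypes overlapped. There Cacna1e was 6.47, 6.72 and 6.50 in rTg4510 mice 2, 4 and 5, and 6.295, 6.74 and 6.53 in tTA mice 2, 3 and 5.

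**Figure D5:**
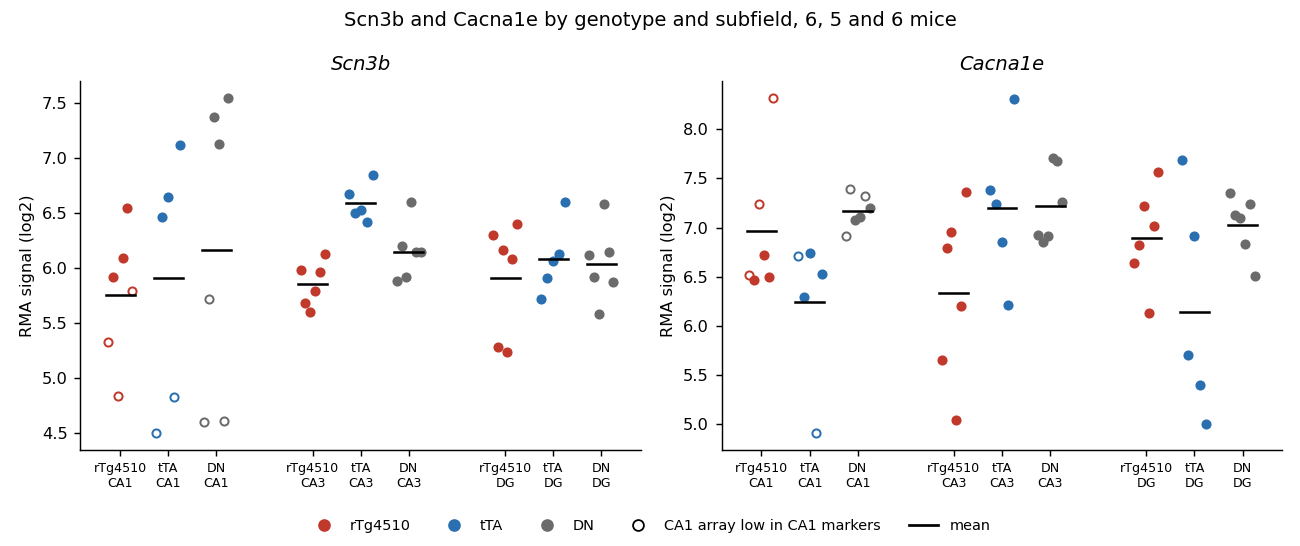
RMA signals (log2, vertical axis) of Scn3b and Cacna1e by genotype and subfield, 1 point per array (6 rTg4510, 5 tTA and 6 DN mice), with a bar at the mean and open points for the CA1 arrays low in CA1 markers. In CA3 the 6 rTg4510 arrays of Scn3b lie below the 5 tTA arrays. Cacna1e is lower in tTA than in rTg4510 mice in CA1 and the DG by the mean over all arrays, with overlap, open points included.

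The other genes with the 3 smallest p values of a comparison had limma adjusted p between 0.779 and 0.9987. In rTg4510 minus tTA these were Cacng8 (-0.27) and Cacna1d (0.79) in CA1, Scn3a (-0.42) in CA3, and Cacna2d2 (1.83) and Cacng7 (0.995) in DG. Cacna2d2 in DG ran from 5.16 to 9.20 with a median of 7.15 in rTg4510 mice, was 5.36, 4.08, 7.37, 4.62 and 4.99 in tTA mice, and ran from 4.85 to 8.27 with a median of 5.19 in DN mice, and the groups overlapped. The lowest rTg4510 and DN values came from rTg4510 mouse 3 and DN mouse 5, whose DG arrays had Prnp against their label. The next lowest rTg4510 value was 6.44. In tTA minus DN the genes were Cacng8 (0.46), Cacna1e (-0.93) and Cacna1d (-0.66) in CA1, Cacna1b (-0.54) and Scn1a (-0.68) in CA3, and Scn8a (-0.95), Cacna1e (-0.89) and Cacna1c (-1.47) in DG. In rTg4510 minus DN they were Scn10a (-0.33), Scn3a (-0.19) and Cacng8 (0.19) in CA1, Cacna1e (-0.89) and Cacna1b (-0.46) in CA3, and Cacna2d2 (1.37), Cacna1f (0.22) and Cacna1d (-0.59) in DG. Scn10a, Cacna1b, Cacna1f, Scn3a and Cacng8 are dim genes, whose values lie near the lower end of the signal range.

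In the mean of the 3 subfields, the smallest p values belonged to Cacng7 (0.63), Scn3a (-0.24) and Cacng2 (0.44) for rTg4510 minus tTA, to Cacng8 (0.28), Scn8a (-0.57) and Cacna1e (-0.61) for tTA minus DN, and to Cacna2d2 (0.80), Scn3a (-0.22) and Scn8a (-0.47) for rTg4510 minus DN. The smallest limma adjusted p among these was 0.8025. In the interactions with rTg4510 minus tTA, the next smallest after Cacna1e were Cacna1d (0.98) and Cacng7 (-0.88) for CA1 minus CA3, Scn8a (-0.73), Cacna1h (-0.55) and Cacna2d2 (-1.26) for CA1 minus DG, and Scn3b (-0.56) and Cacna1c (-1.25) for CA3 minus DG. The regulator, partner and receptor lists also had 0 genes past the threshold in every comparison of genotypes.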

How the data were processed

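RNA from laser-captured layers was amplified, and the labeled cDNA was put on Affymetrix mouse expression arrays, 1 array per mouse and subfield. The deposited values are log2 signals that the authors computed with RMA; its version is not given in the sources used here, and the methods' mention of anti-log values does not match the deposited scale. Of 22716 probe sets, 90 controls were left out and 22626 tested, of which 18003 have a single gene symbol. Subfields were compared over 51 arrays with the mouse as a block, and genotypes within each subfield, in limma 3.58.1 under R 4.3.3, with p values adjusted by Benjamini-Hochberg across the probe sets tested and a threshold of 0.05. By their labels, same-numbered arrays of a genotype come from 1 mouse, which is in doubt for the arrays with Prnp or Xist against their label. Residuals of arrays labelled as 1 mouse correlated at 0.0492, against -0.0022 for other pairs. Every channel gene is named with its levels, with those past the threshold between subfields and the 3 of smallest p between genotypes in more detail, and up to 4 genes per pathway list. Genes and lists were chosen with earlier results of these data known. The number of arrays limits the precision. The script was tested on simulated data. Alternatives were Fisher's LSD, other scalings, filters, weights, probe sets, blocks and left-out arrays. Sequences are from RefSeq, GRCm38.p6.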

Additional observations from a re-analysis of the deposited data

Results flagged for a closer look

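In 24 of 252 groups of a gene, genotype and subfield, 1 array stood far from the others of its group, 19 above and 5 below; chance alone gives about 1 in 20 groups. Signals are log2 values, each followed by the median of the rest of its group.

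In rTg4510 mice, Cacna2d2 was 4.735 in CA1 of mouse 6 against 7.22, and Cacna1d was 3.20 in CA1 of mouse 4 against 4.70. Cacng7 was 7.02 in CA3 of mouse 4 against 2.99 and 6.81 in DG of mouse 5 against 4.05, and Cacng6 was 7.38 in DG of mouse 6 against 3.30. Among dim genes, Cacng8 was 3.08 in CA1 of mouse 1 against 2.66, Cacna1s 2.18 in CA3 of mouse 4 against 1.72, and Scn11a 2.32 in DG of mouse 6 against 1.71. In DG of mouse 5, Cacng1 was 2.86 against 1.90 and Cacna1b 2.35 against 1.60.

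In tTA mice, Cacna1e was 4.91 in CA1 of mouse 4 against 6.62. In CA3 of mouse 5, Cacna2d3 was 4.08 against 6.39 and Cacng5 4.70 against 2.23, and Cacna1g was 3.73 in CA3 of mouse 3 against 1.83.

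In DN mice, Cacna2d1 was 6.12 in CA1 of mouse 1 against 7.71. Cacna2d2 was 6.06 in CA3 of mouse 4 against 4.64 and 8.27 in DG of mouse 2 against 5.16. Cacna1d was 5.69 in CA1 of mouse 4 against 3.999, and Cacng6 was 4.998 in CA1 of mouse 5 against 2.25 and 4.47 in CA3 of mouse 6 against 2.68. Among dim genes, Scn3a was 3.23 in DG of mouse 6 against 2.12, Scn11a 2.43 in CA1 of mouse 4 against 1.62, Cacna1b 2.44 in DG of mouse 4 against 1.67, and Cacna1s 2.205 in CA1 of mouse 1 against 1.62.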

How the results depend on the processing

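Counts of channel genes past the threshold are given for CA1 against CA3, CA1 against DG and CA3 against DG in that order, 2, 6 and 5 as reported. They were 2, 5 and 5 with no replicate block. Of the 10 genes with several probe sets, 1, 3 and 2 passed with the next brightest one, against 1, 4 and 3 with the brightest, and 1, 2 and 1 passed with both. With fewer arrays, the channel gene counts were 0, 1 and 1 within rTg4510 mice alone, 0, 1 and 1 within tTA mice, and 0, 2 and 1 within DN mice. Calls over all 22626 probe sets also fell. They were 4, 363 and 771 in rTg4510 mice, 98, 199 and 431 in tTA mice, and 138, 673 and 786 in DN mice. Array weights gave 5 for CA1 against CA3, where calls over all probe sets also rose from 1059 to 1613. Centring on the array median gave 8 for CA3 against DG, where calls over all probe sets rose from 3137 to 4047. In alternatives chosen after seeing the data, the first and second counts were 4 and 3 without the 8 CA1 arrays low in CA1 markers (1150 and 1310 of all probe sets). They were also 4 and 3 when the 7 arrays with Prnp or Xist against their label were left out as well (1076 and 1166 of all probe sets). Leaving out 1 mouse at a time gave 2 to 4, 4 to 6 and 4 to 7. For these fits and the fit with no replicate block, calls over all probe sets are not given.

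All counts between genotypes stayed at 0 under every alternative, a random block over the 9 groups included. Differences below the threshold changed sign without the 8 CA1 arrays for Cacna1d, at -0.174 for rTg4510 minus tTA in CA1 and -0.0973 for the difference of its CA1 minus CA3 values between these genotypes, with the same values when the 7 were left out too. In that last setting tTA minus DN in CA1 was 0.477 for Cacna1d, and rTg4510 minus DN in CA1 was -0.003 for Cacng8 and 0.0192 for Scn10a. The cause of these changes was not tested. The intervals between genotypes limit what could be seen, and dim probe sets carry little signal.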

Other observations

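Some genes that handle calcium after it has entered also passed between layers. Of 15 measured genes of calcium release and buffering, 3 were higher and 0 lower in CA1 than in CA3, 4 were higher and 3 lower in CA1 than in DG, and 2 were higher and 3 lower in CA3 than in DG, against 4.68%, 10.9% and 13.9% of all probe sets in these comparisons. Calb1, the calcium buffer calbindin and also one of the DG markers, was 1.80 higher in CA1 than in CA3, 3.01 lower in CA1 than in DG and 4.81 lower in CA3 than in DG (limma adjusted p = 0.00336, 8.25e-07 and 2.52e-11). Slc8a1, a sodium-calcium exchanger, was 2.54 higher in CA1 and 1.65 higher in CA3 than in DG (limma adjusted p = 4.91e-07 and 0.000317). Calb2, the buffer calretinin, was 2.22 lower in CA1 and 1.68 lower in CA3 than in DG (limma adjusted p = 7.65e-05 and 0.00189). Pvalb, the buffer parvalbumin and also an interneuron marker, was 1.18 above CA3 and 1.78 above DG in CA1 (limma adjusted p = 0.0146 and 5.42e-05).

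Of 5 sodium pump genes, 2 were higher and 1 lower in CA1 than in CA3, 2 were higher and 1 lower in CA1 than in DG, and 1 was higher and 2 lower in CA3 than in DG, beside the same shares of all probe sets. Fxyd7, a small regulator of the pump, was 1.99 lower in CA1 than in CA3 and 2.79 higher in CA3 than in DG (limma adjusted p = 8.61e-07 and 8.58e-11). In both lists 0 genes passed between genotypes.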
